A study of Rattus norvegicus with 84 samples.

Results

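The genes described here are 9 that mark the pyramidal cells of hippocampal area CA1: Wfs1, Pou3f1, Fibcd1, Mpped1, Nov, Ndst4, Gpr161, Crym and Dcn. They were chosen by symbol, for their known place in CA1, from 15999 genes listed over the 3 deposited tables. All 9 were found in the table of each subregion and passed the filter on low values in each. The series compares 12-month-old with 5-month-old male rats of the inbred F344 strain. CA1, CA3 and the dentate gyrus (DG) were dissected from 1 hemisphere of each of 28 rats, 16 aged 12 months and 12 aged 5 months, giving 84 libraries of polyA RNA. The labels name no treatment, transgene or mutation in either age group, and the series title places the comparison among age-related changes in spatial pattern separation.

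CA1 holds the pyramidal cells that give the main output of the hippocampus, receiving from CA3 and projecting to the subiculum and cortex. A small set of genes separates these cells from CA3 pyramidal cells and dentate granule cells, and in rodents Wfs1 and Pou3f1 are much used to draw the CA1 border. The products differ widely in kind. Pou3f1 (Oct-6, SCIP) is a POU-domain transcription factor. Wfs1 is wolframin, a glycoprotein of the endoplasmic reticulum membrane that is lost in Wolfram syndrome. Gpr161 is a receptor of the primary cilium that raises cAMP and holds back Hedgehog signalling in mice. Fibcd1 is a membrane receptor for acetylated sugars. Ndst4 modifies heparan sulfate chains, while Nov (also named Ccn3) and Dcn (decorin) are secreted proteins of the extracellular matrix. Crym binds thyroid hormone in the cytosol, and Mpped1 carries a metallophosphoesterase domain.

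The sequence before the transcription start is shown for 4 of the genes, the 3 whose CA1 level differed by age (Wfs1, Fibcd1 and Gpr161) and Ndst4, which varied separately from them across CA1 libraries. Each is the 250 bases before the start from RefSeq (build GRCr8), written 5′ to 3′ on the strand of the gene, with GC boxes (GGGCGG on either strand) in capitals.
Wfs1 (chr14:78034955-78035204, plus strand): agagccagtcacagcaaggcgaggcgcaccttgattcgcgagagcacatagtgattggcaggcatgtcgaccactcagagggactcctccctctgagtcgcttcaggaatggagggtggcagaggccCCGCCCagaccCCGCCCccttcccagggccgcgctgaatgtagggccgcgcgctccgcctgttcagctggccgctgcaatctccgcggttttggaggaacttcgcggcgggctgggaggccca
Fibcd1 (chr3:35524143-35524392, minus strand): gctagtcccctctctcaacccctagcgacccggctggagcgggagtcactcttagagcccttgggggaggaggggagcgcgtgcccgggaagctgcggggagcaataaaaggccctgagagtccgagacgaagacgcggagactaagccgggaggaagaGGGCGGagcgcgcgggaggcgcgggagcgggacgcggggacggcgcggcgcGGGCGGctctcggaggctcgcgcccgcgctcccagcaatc
Gpr161 (chr13:80111021-80111270, plus strand): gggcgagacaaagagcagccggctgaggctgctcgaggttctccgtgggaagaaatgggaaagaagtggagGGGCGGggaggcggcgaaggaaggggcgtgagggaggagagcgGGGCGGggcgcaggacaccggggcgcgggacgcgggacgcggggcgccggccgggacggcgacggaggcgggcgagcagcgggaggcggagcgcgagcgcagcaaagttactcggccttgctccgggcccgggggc
Ndst4 (chr2:216461293-216461542, plus strand): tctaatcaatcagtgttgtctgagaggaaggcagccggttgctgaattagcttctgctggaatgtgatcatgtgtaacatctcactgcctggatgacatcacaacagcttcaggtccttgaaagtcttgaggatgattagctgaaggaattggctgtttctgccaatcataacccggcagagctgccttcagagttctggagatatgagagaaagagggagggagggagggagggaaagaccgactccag
In the table of windows of 300 bases (250 before to 50 after the start), 5 of the 9 genes had an entry, matched by symbol, the fifth being Mpped1. The Wfs1 and Fibcd1 windows held 2 GC boxes each, as did the Gpr161 window shown, and those of Ndst4 and Mpped1 held 0. A GC box was present in 33.1% of all 33469 windows of that length. A further Gpr161 window, at another listed start, held 0. G and C made up 64.7% of the Wfs1 window, 72.7% of that of Fibcd1 and 75.3% of the Gpr161 window shown, against a median of 51.7% over all windows. Ndst4 had 51.0% and Mpped1 49.3%. The CpG count was 22 for Wfs1, 39 for Fibcd1 and 42 for Gpr161, against 4 for Ndst4, 10 for Mpped1 and a median of 7 over all windows. The octamer ATGCAAAT, the classical POU-factor motif, was in none of the 6 windows on either strand, and in 1.78% of all windows.

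RNA was read as normalized counts, gene counts that the submitters scaled within each subregion's table. Reads per library ranged from 14.4 to 23.4 M, with a median of 18.0 M. Because the tables were scaled separately, levels are set side by side across subregions as a description with no test. The animal numbers were put into 2 runs, which are not named as batches in the labels. The first is 1 unbroken stretch of numbers, with 10 rats of 12 months following 6 of 5 months. The second joins 2 stretches that lie apart, animals 3673 to 3678, all 6 of them 12 months old, and animals 3593 to 3598, all 6 of them 5 months old. In the second run an effect of the stretch and an effect of age cannot be told apart, and in the first run the ages also hold separate numbers. Between the runs, 6.39% of genes differed in 12-month CA1 and 18.2% in 5-month CA1. Mitochondrially encoded genes took 11.5 ± 1.81% of CA1 reads at 12 months and 8.54 ± 2.43% at 5 months (SD, n = 16 and 12). In the first run these means were 11.1% at 12 months and 10.4% at 5 months, and in the second run 12.4% at 12 months and 6.65% at 5 months.

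Of the 9 genes, 8 had a CA1 level above that of the other subregions in most rats, both as normalized counts and as CPM. Crym did so as CPM but not as normalized counts. The median was highest in CA1, next in CA3 and lowest in the DG for all 9. CA1 was the highest of the 3 subregions in 28 of 28 rats for Wfs1, Pou3f1, Mpped1, Nov, Ndst4 and Gpr161, in 27 for Fibcd1, in 22 for Dcn and in 13 for Crym. As CPM (reads scaled to an equal library total) these numbers were the same for the first 7 genes, 23 for Dcn and 18 for Crym.

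The normalized count of Wfs1 had a median of 26386 in CA1 (range 17589 to 35608), 4844 in CA3 (range 1509 to 9555) and 3320.1 in the DG (range 986 to 12234). The lowest CA1 library stood above the highest library of either other subregion. Within rats, CA1 exceeded CA3 by a median of 5.22-fold and the DG by 8.15-fold. Pou3f1 had a median of 2319 in CA1 (range 1179 to 3470.0), 437 in CA3 (range 139.7 to 873) and 334 in the DG (range 37.0 to 811), and its CA1 range was again separate. The median excess within rats was 5.31-fold over CA3 and 7.98-fold over the DG. Ndst4, the sulfotransferase, had a median of 399 in CA1 (range 168 to 662), 41.3 in CA3 (range 15.6 to 80.4) and 36.6 in the DG (range 17.1 to 141). The CA1 excess of 9.5-fold over CA3 and 9.31-fold over the DG differed little between them. Nov had a median of 5933 in CA1 (range 4426 to 7948), 1304 in CA3 (range 788 to 2116) and 637 in the DG (range 171 to 1601), and Mpped1 had 8015 in CA1 (range 5665 to 12069), 2255 in CA3 (range 741 to 3792) and 1389 in the DG (range 538 to 3568). For both, every CA1 library was above every CA3 and DG library, with an excess over CA3 of 4.42-fold for Nov and 3.63-fold for Mpped1.

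The ranges of the other 4 genes overlapped between CA1 and CA3. Gpr161 had a median of 1522 in CA1 (range 765 to 2717), 394 in CA3 (range 155 to 766) and 211 in the DG (range 67.1 to 545), and although the lowest CA1 library lay just below the highest of CA3, CA1 was the highest within every rat. Fibcd1 had a median of 8194 in CA1 (range 5221 to 13190.5), 3136 in CA3 (range 809 to 5759.6) and 1242 in the DG (range 659.9 to 3195), a smaller excess over CA3 (2.46-fold) than over the DG (6.58-fold). Dcn, which fibroblasts of the meninges also make, had 251 in CA1 (range 127 to 366), 171 in CA3 (range 71.1 to 309) and 68.7 in the DG (range 38.3 to 128), 1.54-fold over CA3 and 4.14-fold over the DG. Crym had 3942 in CA1 (range 3219 to 5387), 3775 in CA3 (range 2275 to 4545) and 3468 in the DG (range 2761 to 4448), a median of 1.1-fold over CA3 and 1.16-fold over the DG within rats, with overlapping ranges. CA3 and DG ranges overlapped for all 9 genes, so the order of those 2 subregions does not hold for single libraries, although Dcn was higher in CA3 than in the DG in 28 of 28 rats.

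**Figure D1:**
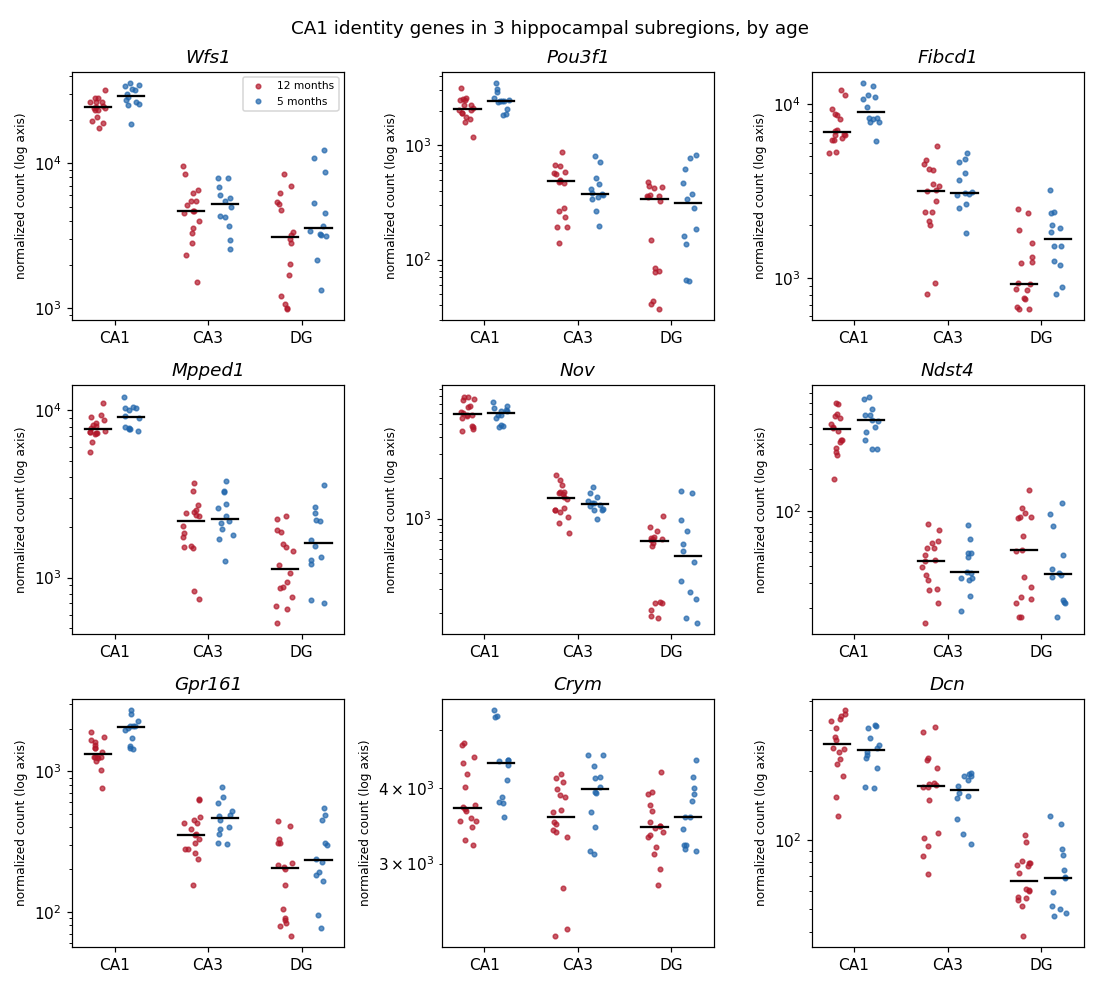
Normalized count (log axis) of each gene in CA1, CA3 and the DG, with 12-month rats (red) left of 5-month rats (blue), 1 point per library and a black bar at the median. For Wfs1, Pou3f1, Mpped1, Nov and Ndst4 every CA1 library lies above every CA3 and DG library, while the Crym points of the 3 subregions overlap.

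Among 9648 genes with a median of at least 10 CPM in CA1, ranked by the median over rats of the log2(CPM + 1) in CA1 minus the higher of CA3 and the DG, Ndst4 ranked 3, Wfs1 5, Pou3f1 6, Nov 8, Gpr161 11, Mpped1 12 and Fibcd1 28. Dcn ranked 126 and Crym 1071. The other places among the first 6 went to Nxph3 (1), a neurexophilin, Adgrl2 (2), the latrophilin-2 receptor, and Nts (4), the precursor of neurotensin. The excess on this log2 scale was 2.45 for Ndst4, 2.39 for Wfs1, 2.27 for Pou3f1, 1.35 for Fibcd1, 0.73 for Dcn and 0.10 for Crym, against 2.72 for Nxph3. The genes were chosen as known CA1 markers with earlier results of these data in view, so these ranks are a description.

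The change with age was then taken within CA1. Gpr161, Wfs1 and Fibcd1 were lower at 12 than at 5 months, the other 6 genes did not pass the test, and none was higher. The test was limma on log2 of the normalized count plus 1, with p-values adjusted by Benjamini-Hochberg over all 14685 tested genes and called below 0.05. By this rule 25.2% of all genes were called, 12.8% as lower and 12.4% as higher, against 3 of the 9 genes (33.3%) as lower and 0 as higher. The log2 change was negative for 7 of 9, with a median of -0.24, against 0.0038 over all tested genes. In dissected tissue, fewer cells of a type and less RNA per cell cannot be told apart.

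Gpr161, the ciliary receptor, had the lowest p. Gpr161 had a lowest, median and highest normalized count of 765, 1321 and 1897 at 12 months, against 1432, 2055 and 2717 at 5 months. All 16 of the 12-month libraries lay below the 5-month median, and 9 lay below every 5-month library. At the other end, 8 of the 12 libraries of 5 months lay above every 12-month library. The means were 1375 ± 283 at 12 months and 1995 ± 413 at 5 months (SD, n = 16 and 12). The log2 change was -0.54 ± 0.11 (estimate ± SE throughout; adjusted p = 0.00165 by limma; 95% interval -0.76 to -0.31), which is a change of -31.2%. In the first run the median was 1461 at 12 months and 2026 at 5 months, and in the second run 1246 at 12 months and 2055 at 5 months. Within the first run the change was -0.46 (adjusted p = 0.0437) and within the second -0.68 (adjusted p = 0.00768, limma), against backgrounds of 3.19% and 33.8% of genes called. The call held in each of 28 fits that left out 1 rat. With the mitochondrial share of reads as a covariate, the change was -0.38 and its adjusted p by limma was 0.0765, with 4.95% of all genes called.

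Wfs1, the wolframin gene, was lower by a smaller fraction. Wfs1 had a lowest, median and highest normalized count of 17589, 24228 and 32165 at 12 months, against 18756, 29159 and 35608 at 5 months. The ranges overlapped over most of their length, with 15 of 16 libraries of 12 months below the 5-month median and 4 of 12 libraries of 5 months above every 12-month library. The means were 24268 ± 3797 at 12 months and 29213 ± 4931 at 5 months (SD, n = 16 and 12), a log2 change of -0.26 ± 0.09 (adjusted p = 0.0304 by limma; 95% interval -0.45 to -0.08). The change was -0.28 within the first and -0.26 in the second, with adjusted p of 0.15 and 0.142 by limma. The call was lost without any of 12-month replicate 14 or 5-month replicates 1, 2, 8 and 11, at an adjusted p of up to 0.0608, and with the mitochondrial share as a covariate (change -0.22, adjusted p = 0.197).

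Fibcd1, the sugar-binding receptor, followed. Fibcd1 had a lowest, median and highest normalized count of 5221, 6862 and 12101 at 12 months, against 6125, 8980.4 and 13190.5 at 5 months. In 13 of 16 libraries of 12 months it was below the 5-month median, and 3 of them were above it. The means were 7601 ± 1991 at 12 months and 9599 ± 2189 at 5 months (SD, n = 16 and 12), a log2 change of -0.34 ± 0.12 (adjusted p = 0.0369 by limma; 95% interval -0.59 to -0.10). The change was -0.32 within the first run and -0.41 within the second, with adjusted p of 0.184 and 0.107 by limma. The call did not hold in 11 of the 28 fits with 1 rat removed (12-month replicates 3, 9, 12, 14, 15 and 16, and 5-month replicates 1, 2, 8, 10 and 11), with changes between -0.40 and -0.30. With the mitochondrial share as a covariate the adjusted p was 0.251 (change -0.27).

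The other genes did not pass in CA1, and 4 of these 6 had negative changes. Mpped1 had a median of 7692 at 12 months (range 5665 to 11047), against 9166 at 5 months (range 7473 to 12069), a log2 change of -0.21 ± 0.08 (adjusted p = 0.0586 by limma). Of its 12-month libraries 14 of 16 were below the 5-month median. Crym, the thyroid hormone binder, had a median of 3709 at 12 months (range 3219 to 4761), against 4405 at 5 months (range 3577 to 5387), with a change of -0.18 ± 0.07 (adjusted p = 0.0588 by limma). Both sat near the threshold: Mpped1 passed in 7 and Crym in 8 of the 28 fits that left out 1 rat, Crym passed with the run as a term (-0.19, adjusted p = 0.0287), and both passed with DESeq2 on the recovered reads (adjusted p = 0.0458 for Mpped1 and 0.0459 for Crym). Mpped1 also passed with array weights and in the second run alone. Its change was -0.08 within the first run and -0.35 in the second, but the difference between the runs did not pass the test (-0.27 ± 0.16, adjusted p = 0.39 by limma). In the first run its median was 8144 at 12 months and 7872 at 5 months, and in the second 7473 at 12 months and 9821 at 5 months.

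Pou3f1, the transcription factor, had a median of 2069 at 12 months (range 1179 to 3172), against 2431 at 5 months (range 1848 to 3470.0) (change -0.25 ± 0.11, adjusted p = 0.0926 by limma), and passed with array weights (-0.31, adjusted p = 0.017) and without 12-month replicate 13. Its level was higher in the second run than in the first, by a log2 of 0.35 ± 0.14 in 12-month CA1 (adjusted p = 0.138 by limma) and 0.38 ± 0.10 in 5-month CA1 (adjusted p = 0.0139). Nov, the matricellular protein, had similar values of 0.29 ± 0.12 in 12-month CA1 (adjusted p = 0.141 by limma) and 0.30 ± 0.08 in 5-month CA1 (adjusted p = 0.0156). For Nov the age change did not pass the test: a median of 5924 at 12 months (range 4426 to 7948), against 6056 at 5 months (range 4725 to 7310.2) (change 0.03 ± 0.09, 95% interval -0.15 to 0.22, adjusted p = 0.812). Dcn had a median of 262 at 12 months (range 127 to 366), against 246 at 5 months (range 168 to 315) (change 0.07 ± 0.14, 95% interval -0.21 to 0.35, adjusted p = 0.734 by limma). Ndst4 had the widest interval of the 9 in CA1, with a median of 384 at 12 months (range 168 to 598), against 446 at 5 months (range 279 to 662) (change -0.24 ± 0.16, 95% interval -0.56 to 0.09, adjusted p = 0.28 by limma).

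**Figure D2:**
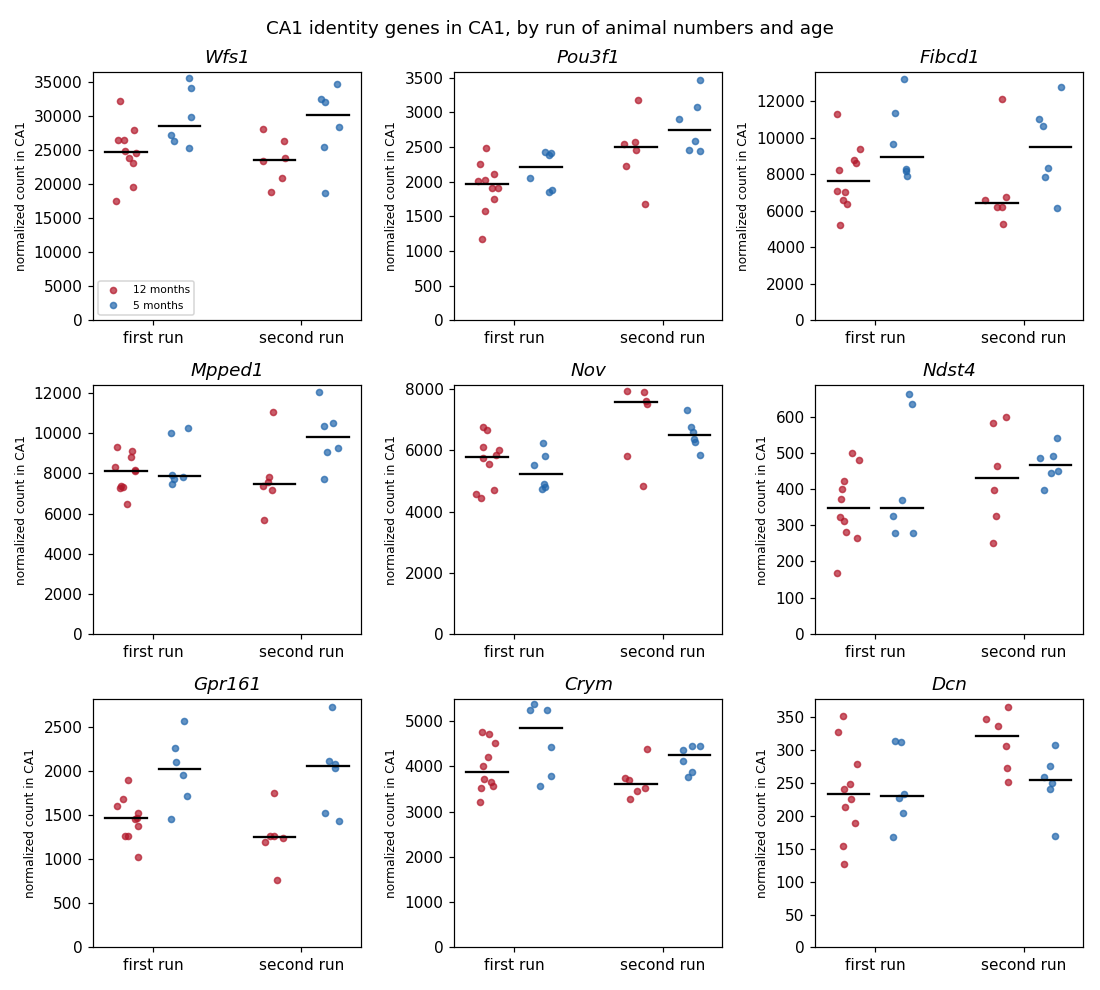
Normalized count of each gene in CA1 libraries (linear axis from 0) by run of animal numbers, with 12-month rats (red) left of 5-month rats (blue), 1 point per library and a black bar at the median. Gpr161 and Wfs1 have lower 12-month than 5-month medians in both runs, while Pou3f1 and Nov have higher medians in the second run at both ages.

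In CA3 none of the 9 genes was called, where 21.7% of all genes were (limma, 14893 genes; edgeR and DESeq2 on recovered reads also called 0), and 2 of the 9 had an unadjusted p under 0.05. These were Gpr161, a median of 354 at 12 months (range 155 to 634), against 464 at 5 months (range 303 to 766) (change -0.38 ± 0.16, adjusted p = 0.0965 by limma), and Crym (-0.17 ± 0.08, adjusted p = 0.141). Gpr161 passed without 12-month replicate 4 or 9. The median change over the 9 was -0.15 in CA3, where Wfs1 had -0.15 ± 0.21 and Fibcd1 -0.26 ± 0.23 (95% intervals -0.58 to 0.28 and -0.72 to 0.20). In the DG, 1 of the 9 was called, as lower, where 37.1% of all genes were called, 18.5% as lower. This was Fibcd1, with a median of 925 at 12 months (range 659.9 to 2476), against 1680.2 at 5 months (range 801 to 3195) (change -0.57 ± 0.21, adjusted p = 0.0354 by limma). Its call was lost without any of 12 rats (12-month replicates 1, 5, 7, 8, 9, 12 and 14 and 5-month replicates 1, 4, 7, 8 and 12), as CPM (adjusted p = 0.0553) and in the first run alone (-0.36, adjusted p = 0.459), against -0.84 and 0.017 in the second run, where the shares of all genes called were 0.172% and 46.9%. Other DG changes had wide intervals, such as -0.57 ± 0.34 for Wfs1 (95% interval -1.27 to 0.13) and -0.56 ± 0.46 for Pou3f1 (95% interval -1.48 to 0.37), neither past the test. Mpped1 (-0.47 ± 0.24), Gpr161 (-0.43 ± 0.31), Nov (-0.11 ± 0.34), Crym (-0.07 ± 0.06) and Dcn (-0.06 ± 0.15) also had negative DG changes that did not pass, and Ndst4 had 0.27 ± 0.33.

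Whether the age change differed between subregions was tested within rats. The difference passed for none of the 9 genes between CA1 and CA3 (0 of 9, 0 at an unadjusted p under 0.05; 0% of 14513 genes by limma) or between CA1 and the DG (0 of 9, 0 unadjusted; 0.607% of 14340 genes by limma). The 87 genes behind this last share became 17 without 5-month replicate 5 or 11 and 374 without 12-month replicate 3, while the 9 genes gave 0 calls in each of the 28 fits without 1 rat. The difference for Gpr161 was -0.16 ± 0.23 against CA3 (95% interval -0.64 to 0.32) and -0.11 ± 0.34 against the DG (95% interval -0.82 to 0.59). For Wfs1 these were -0.11 ± 0.30 (-0.73 to 0.50) and 0.31 ± 0.39 (-0.48 to 1.09). For Fibcd1 they were -0.09 ± 0.31 (-0.72 to 0.55) and 0.23 ± 0.27 (-0.33 to 0.78). The intervals span changes as large as those in CA1, so a call in CA1 without one in CA3 shows no difference between them. The difference of the age change between the 2 runs passed for 0 of the 9 genes in each subregion by limma, where the shares of all genes passing were 3.24% for CA1, 0.577% for CA3 and 6.15% for the DG. Pou3f1 and Nov in the DG had an unadjusted p under 0.05, and none of the 9 did in CA1 or CA3.

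**Figure D3:**
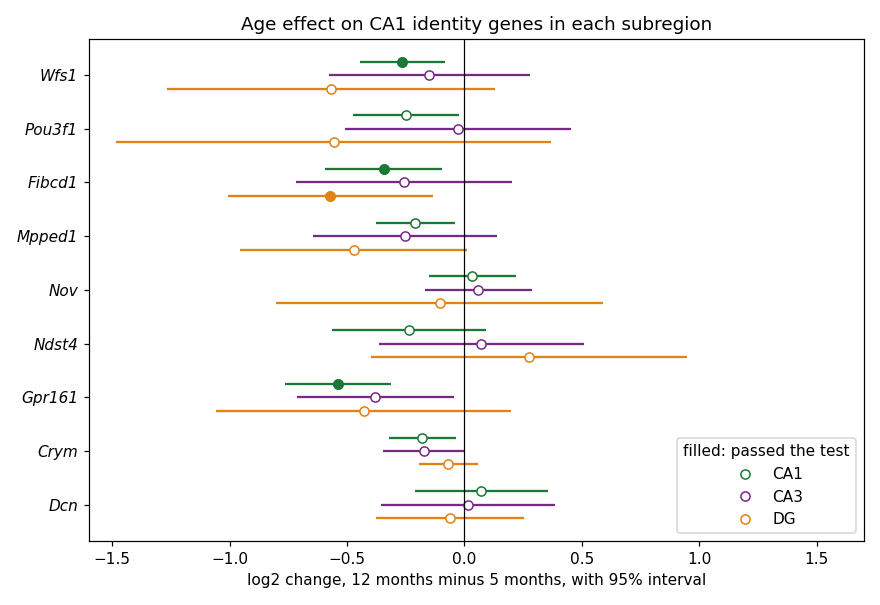
Log2 change at 12 months minus 5 months of each gene in CA1, CA3 and the DG, with 95% intervals from limma; filled points passed the test. In CA1 the points of Gpr161 (-0.54), Fibcd1 (-0.34) and Wfs1 (-0.26) are filled, in the DG that of Fibcd1 (-0.57), and in CA3 none.

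Across the 28 CA1 libraries, the 9 genes did not vary as 1 block. Correlations were taken on log2 values after the mean of each age group was subtracted, and are descriptions over libraries that share dissection, depth and processing. Wfs1, Fibcd1, Mpped1 and Gpr161 moved closely together. Crym, with little CA1 excess, went with them too (r = 0.73 with Fibcd1, 0.62 with Gpr161, 0.60 with Wfs1 and 0.50 with Mpped1). No background r over other gene pairs is given here, so this is not read as a trait of CA1 markers. Wfs1 correlated with Fibcd1 at r = 0.87 (rho 0.88, and r = 0.85 without the 2 libraries farthest from the Wfs1 median) and with Gpr161 at r = 0.83 (rho 0.87, and 0.81 without 2). Pou3f1 went with Nov (r = 0.74, rho 0.76, and 0.69 without 2), and Nov also with Ndst4 (r = 0.64, rho 0.59, and 0.51 without 2). These relations of Pou3f1 changed when each run's age groups were centred separately. Its r with Nov was then 0.60 (rho 0.52, and 0.40 without 2), and its r was 0.83 with Mpped1, 0.75 with Wfs1, 0.70 with Gpr161 and 0.69 with Fibcd1, against 0.71, 0.52, 0.40 and 0.45 with the ages alone centred. Ndst4 stood apart from Wfs1 and Fibcd1 under both, with r = -0.12 to Wfs1 and -0.33 to Fibcd1, and -0.08 and -0.30 with the runs centred too. Its median over its 8 partners was -0.01. Dcn had a median of 0.26 over its partners. The median over all 36 pairs was 0.36, and 0.54 when each run's age groups were centred separately.

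The median r over the 36 pairs was 0.66 in CA3 and 0.68 in the DG. Fibcd1 and Mpped1 reached r = 0.98 in CA3 (rho 0.97, and 0.97 without 2), and Mpped1 and Gpr161 r = 0.95 in the DG (rho 0.95, and 0.94 without 2). Crym was the exception in the DG, with a median of 0.03 over its partners. The spread between libraries differed between genes. The highest library exceeded the lowest by 12.4-fold for Wfs1 and 21.9-fold for Pou3f1 in the DG, against 2.02-fold and 2.94-fold in CA1. For Crym the ratio was 1.61-fold in the DG and 1.67-fold in CA1. The summed level of the 9 genes, in CPM, ranged from 322 to 1025 in 12-month DG and from 365 to 1403 in 5-month DG, and the part in this of CA1 tissue in the dissected pieces was not tested.

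**Figure D4:**
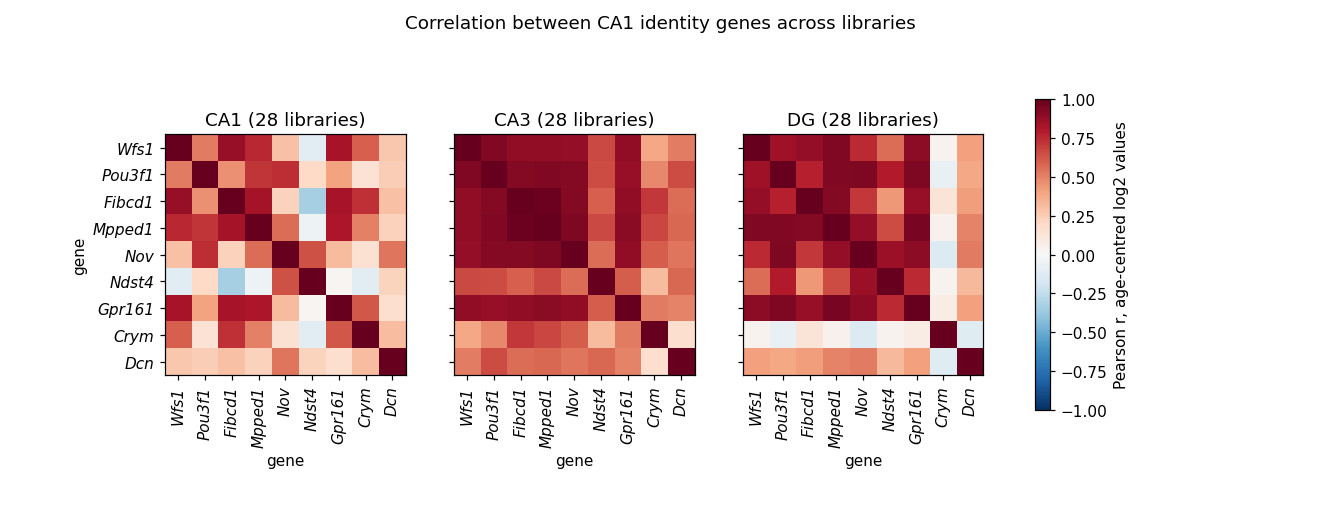
Pearson correlation between each pair of the 9 genes across 28 libraries of CA1, CA3 and the DG, from log2 normalized counts centred on the age groups. In CA1 the Ndst4 row is near 0 for Wfs1, Mpped1 and Gpr161, and in the DG the Crym row is near 0 throughout.

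The genes most like single members of the 9 across CA1 libraries were found by the same correlation over 14684 genes. For Gpr161 they were Ephb6, an ephrin receptor without kinase activity (r = 0.89, rho 0.87, 0.85 without 2), and Celsr2, an adhesion receptor of the flamingo family (r = 0.87, rho 0.87, 0.86 without 2). Both were lower at 12 months, Ephb6 by a log2 change of -0.48 ± 0.10 (adjusted p = 0.00153) and Celsr2 by -0.43 ± 0.09 (adjusted p = 0.00182, both by limma). For Wfs1 they were Fibcd1 and Sez6 (r = 0.85), and for Mpped1 Sez6 (r = 0.86) and Inhbb (r = 0.84). Fibcd1 was closest to Itpka, an inositol trisphosphate kinase (r = 0.92), and Rgs14 (r = 0.90). Nov was closest to Htr2c, the serotonin 2C receptor (r = 0.87), and Man1a1 (r = 0.86), and Ndst4 to Etv1, an ETS transcription factor (r = 0.90), and Ankrd34b (r = 0.89). Htr2c and Etv1 are both on the list of 6 genes described at the ventral pole of CA1 in mice. How Nov and Ndst4 correlated with the rest of that list is not reported here, so no ventral pattern is read from this. Pou3f1 was closest to Ache (r = 0.84) and Pkdcc (r = 0.83), and Dcn to Ppp3cb (r = 0.74) and Wdr17 (r = 0.72).

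Other genes of the same cells and pathways give the setting in CA1. Over all tested genes there, 12.8% were called lower and 12.4% higher, and the counts of each list here and below stand beside those shares. Of 10 other genes listed as CA1 markers 7 were tested and 1 fell, the protease Prss12 (-0.37 ± 0.11, adjusted p = 0.0128 by limma), and all 7 changes were negative. Prss12 was not highest in CA1 here, with a median normalized count of 183 there, 294 for the DG and 134 for CA3. The 7 genes summed to a median of 429 CPM in 12-month CA1 and 448 CPM in 12-month CA3, so as a list they did not mark CA1 in these libraries. Of 6 genes listed for ventral CA1, 1 fell, the calcium-binding Calb2 (-0.48 ± 0.11, adjusted p = 0.00311). Its median was 144 there against 288 for CA3 and 124 for the DG, so it too was not highest in CA1. The list of 6 as a whole was, with a median sum of 208 CPM in 12-month CA1, 118 CPM in 12-month CA3 and 122 CPM in 12-month DG. Of 10 genes of excitatory neurons 3 fell and 9 were negative, among them the splicing factor Rbfox3 (-0.40 ± 0.10, adjusted p = 0.00451) and the NMDA receptor subunit Grin2b (-0.43 ± 0.11, adjusted p = 0.00727). Interneuron, astrocyte and oligodendrocyte lists of 10 genes each had 3, 3 and 2 genes lower and 0 higher. Among 10 microglia markers, 4 rose and 0 fell, with Trem2 at 0.54 ± 0.10 (adjusted p = 0.000997). Of 10 DG markers 2 rose, Calb1 (0.43 ± 0.11, adjusted p = 0.00505) and Trpc6 (0.50 ± 0.18, adjusted p = 0.0402), and of 12 CA3 markers 1 rose and 2 fell. Calb1 had a median normalized count of 739 in CA1, 942 in the DG and 395 in CA3, so it set the DG little apart from CA1.

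The summed levels of markers of the neighbouring subregions were taken in CPM. The 10 DG markers summed to a median of 401 in 12-month CA1 (range 176 to 778), against 319.8 at 5 months (range 208 to 566), and the 12 CA3 markers to 775 (range 662 to 956), against 862 (range 805 to 952). No marker of either list was at 0 in every library of an age group, and Iyd of the CA3 list and Tdo2 and Lct of the DG list were not analysed here. In 1 fit the mean standardized level over both lists together was a covariate. The changes were then -0.51 for Gpr161, -0.23 for Wfs1 and -0.30 for Fibcd1, all past the test by limma. The CPM sums of the lists moved in opposite directions with age, but the covariate counted each gene equally. By gene, the median log2 change in CA1 was 0.07 for the CA3 list, with 5 of 12 negative. For the DG list it was 0.11, with 2 of 10 negative. The covariate joined both lists, so it adjusts for neither list alone. Tyro3 of the CA3 list was also higher in CA1 than in CA3 (median normalized count 5475 and 3591). The part of neighbouring tissue in these changes was not tested. Of 6 subiculum and 6 CA2 markers, and of 8 endothelial and 5 choroid plexus markers, none passed the limma test. Of 10 fibroblast and meningeal markers, the cells that also make Dcn, 2 rose and 2 fell, and their sum ranged from 117 to 154 CPM at 12 months and from 122 to 162 at 5 months. The microglial sum had a median of 514 CPM at 12 months and 464 at 5 months, with 1 library, 12-month replicate 10, at 2492 and the next highest at 596. Without that rat, 3 of the 9 genes passed in CA1, as with it.

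Pathway relatives of single genes were taken from lists of textbook members. For Gpr161, of 16 cilium, cAMP and Hedgehog genes 5 fell and 2 rose. Gnas, the stimulatory G protein, changed by -0.32 ± 0.06 (adjusted p = 0.00112), the Hedgehog effector Gli3 by -0.49 ± 0.10 (adjusted p = 0.00136), and Prkar1a, a regulatory subunit of protein kinase A, by -0.30 ± 0.06 (adjusted p = 0.00169), while the ciliary transport gene Ift88 rose by 0.18 ± 0.06 (adjusted p = 0.0246, all by limma). For Wfs1, of 18 genes of endoplasmic reticulum stress 4 rose and 0 fell. Atf4 rose by 0.24 ± 0.06 (adjusted p = 0.00591) and Xbp1 by 0.22 ± 0.08 (adjusted p = 0.0338). For Ndst4, of 19 heparan sulfate genes 7 fell and 0 rose, with Hs6st1 at -0.42 ± 0.08 (adjusted p = 0.000654) and Ndst1, a paralog of Ndst4, at -0.38 ± 0.07 (adjusted p = 0.00118). Of 16 paralogs and family relatives of the 9 genes, 2 fell, Ndst1 and the POU factor Pou3f2 (-0.49 ± 0.14, adjusted p = 0.0107), and 1 rose, Ogn, like Dcn a small leucine-rich proteoglycan (0.72 ± 0.26, adjusted p = 0.0427). For Crym, of 13 thyroid hormone genes 2 fell, Rxra (-0.41 ± 0.12, adjusted p = 0.0159) and Hr (-0.35 ± 0.11, adjusted p = 0.0192). Against the background of 12.8% of genes lower and 12.4% higher, the medians of these lists were -0.17 for the cilium genes, 0.05 for the stress genes, -0.14 for heparan sulfate and -0.11 for thyroid hormone.

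**Figure D5:**
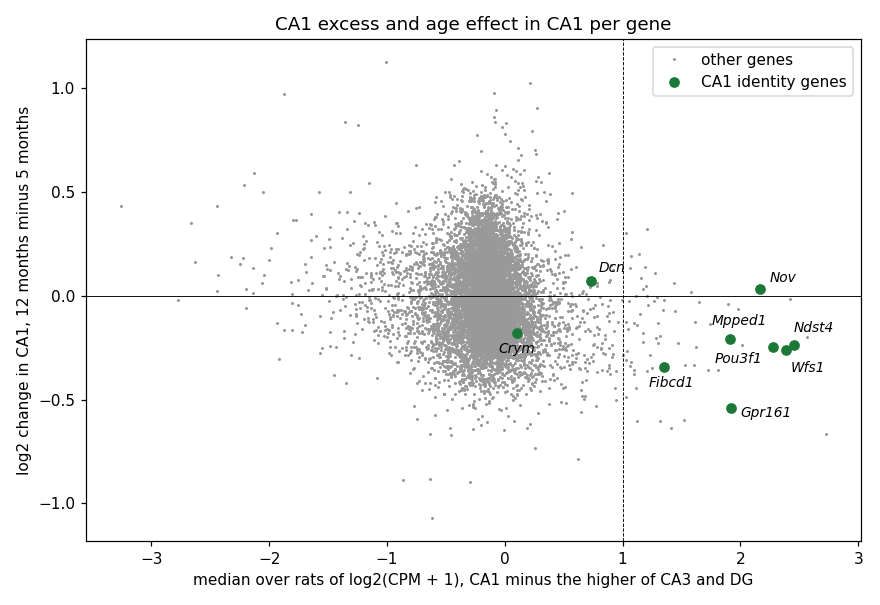
Each of 9648 genes by its CA1 excess (median over rats of log2(CPM + 1) in CA1 minus the higher of CA3 and the DG) and by its log2 age change in CA1 (12 months minus 5 months), with the 9 genes in green and a dashed line at a 2-fold excess. Dcn and Crym lie left of the line. Among the rest of the 9 genes, which lie right of it, Nov alone lies above 0 (0.03) and Gpr161 is the lowest (-0.54).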

How the data were processed

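RNA sequencing gave gene expression for 84 libraries of CA1, CA3 and the DG of 28 rats. Per the submitters' processing notes, STAR 2.5.3a, Partek and DESeq2 3.5 were used with build rn6; settings, annotation and strandedness are not stated there. The deposited values are a signal, normalized counts scaled within each subregion's table. Values were whole multiples of 1 step per library (tolerance 0.1 reads, met by 100% of values that came to at most 1000 reads), which gave back the reads.

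The members and lists were chosen with earlier results of these data known. Genes reaching 10 in 12 or more libraries were tested on log2(value + 1) with limma 3.58.1 (trend, 2-sided) in R 4.3.3, adjusted by Benjamini-Hochberg over each table, with a threshold of 0.05. Fold changes on this scale understate those of low genes. Subregions were compared by within-rat differences, paired by the animal number in the titles; deviations of a rat's CA1 and CA3 libraries correlated at a mean of 0.032, and those of CA1 and DG at 0.030. Alternatives on the recovered reads used edgeR 4.0.16 and DESeq2 1.42.0. The scripts were tested on simulated data. The named genes are the 9 members, up to 4 genes of each list with the smallest p in CA1, the first 6 by CA1 excess and the 2 most like each member; those most like Crym are not reported here. Of the member symbols, 8 matched RefSeq (GRCr8) directly and Nov as a synonym of Ccn3. Intervals cover sampling of these rats only.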

Additional observations from a re-analysis of the deposited data

How the results depend on the processing

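Of the 9 genes, 3 passed in CA1, and so they did with a pseudocount of 0.5 or 5, no filter, a minimum of 50, TMM rescaling, CPM, edgeR and the marker covariate. With DESeq2 or array weights 5 passed, with the run as a term 4, in the first run alone 1, in the second 2, and with the mitochondrial share as a covariate 0 (limma, 1 at an unadjusted p under 0.05). Over all genes the main fit called 25.2%, DESeq2 28.7%, array weights 29.3% and the run term 32.2%. The first run alone called 3.19%, the second 33.8% and the mitochondrial covariate 4.95%. Leaving out 1 rat gave 1 to 6 in CA1, 0 to 1 in CA3 and 0 to 2 in the DG. In the DG, 1 passed, against 0 as CPM, with DESeq2, in the first run alone or with the mitochondrial share, 2 with array weights and 3 in the second run alone. The shares of all DG genes called were 37.1% in the main fit, 36.7% as CPM, 39.3% with DESeq2 and 0.172% in the first run. They were 34.8% with the mitochondrial share, 46.2% with array weights and 46.9% in the second run. As CPM, 66.6% of the DG calls over all genes were higher, against 2690 of 5382 as deposited. Over all genes, the 3700 calls in CA1 became 468 in the first run and 727 with the mitochondrial share, the 3231 in CA3 became 719 and 2048, and the 5382 in the DG became 25 in the first run. For the differences between subregions, 0 of 9 passed under every alternative run. Without the replicate block, which dropped the pairing by rat, it was 0 as well, with 4 calls over all genes for CA1 minus CA3 (0 paired) and 8 for CA1 minus DG (87 paired). The paired counts over all genes became 2 (pseudocount 5), 31 (run term) and 57 (first run) for CA1 minus CA3, and 170 (CPM), 264 (run term), 1 (first run) and 19 (second run) for CA1 minus DG. With array weights, Nov (-0.03) and Dcn (-0.0023) had negative CA1 changes, with adjusted p of 0.776 and 0.992 by limma. The median correlation in CA1 was 0.36, and 0.54 centred on age and run. The causes were not tested.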

Other observations

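Beyond the 9 genes, 65 further genes had a CA1 excess of at least 2-fold over either other subregion in CPM. This set was defined after the data were seen, so its values are a description with no test. In CA1, 18 of the 65 (27.7%) were called lower at 12 months and 0 higher, with 53 negative changes and a median log2 change of -0.14, beside a background of 12.8% lower and 12.4% higher. In CA3, where 21.7% of all genes were called in either direction, the same 65 genes had 4 lower and 2 higher, with a median of -0.04. In the DG, where 37.1% of all genes were called, 18.5% as lower, they had 8 lower and 6 higher, with a median of -0.10. Of 39 genes at least 2-fold higher in CA3, 1 was lower and 2 were higher in CA3. Of 119 such DG genes, 22 (18.5%) were lower and 25 (21.0%) higher in the DG, the lower share being that of all genes there. In CA1 0 of these 119 were lower and 6 (5.04%) higher. Among the CA1 genes, Ptpru, a receptor tyrosine phosphatase, changed in CA1 by -0.36 ± 0.11 (adjusted p = 0.0178 by limma), Htr1b, a serotonin receptor, by -0.36 ± 0.11 (adjusted p = 0.0185), and Kcp by -0.60 ± 0.18 (adjusted p = 0.0151). These 3 were chosen after their values were seen. Nxph3, with the highest CA1 excess of all, had -0.67 ± 0.29 and did not pass (adjusted p = 0.0855).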
